A study of Mus musculus with 60 samples.

Results

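The visceral endoderm is the epithelium that wraps the mouse embryo around gastrulation. It takes up nutrients from the surrounding fluid through receptors on its microvilli before a placenta is in place. Cubilin (Cubn) binds cargo but has no membrane-spanning stretch, amnionless (Amn) anchors it in the membrane, megalin (Lrp2) is a large receptor of the low-density lipoprotein receptor family that works with them, and Dab2 couples such receptors to clathrin. Hnf4a and Sox17 are transcription factors of the endoderm, Ihh is a Hedgehog ligand secreted by visceral endoderm, Vil1 encodes villin, which bundles the actin of microvilli, and Lgals2 encodes galectin-2, a lectin that binds galactose-containing sugars.

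These 9 genes were found by symbol in the RNA count table and are 9 of its 23127 genes. The list had been drawn up with earlier results of these data known. Each was measured in 6 libraries from ICR mouse embryos kept as explants in N2B27 medium for 48 hours. The EPZ005687 arm received an inhibitor of EZH2, the enzyme of Polycomb repressive complex 2 that methylates histone H3 at lysine 27, and the control arm received the same volume of DMSO, its solvent. In each arm 1 library came from anterior embryonic tissue (A), 1 from posterior embryonic tissue (P) and 1 from the extraembryonic tissue (ExE). The labels give neither the age of the embryos used for RNA nor how many were pooled, and name no sorting of cells. The other 54 of the 60 samples were not analysed here.

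Totals ran from 1000342 counts (A under EPZ005687) to 5812535 counts (ExE under DMSO), and a gene at 0 could still have held up to 3 counts. That limit is 2.999 CPM (counts scaled to the same library total) for the smallest total and 0.516 CPM for the largest. With 1 library per region and treatment, the other regions or the other arm stand in for repeats, p-values measure only the spread among these 6 libraries, and intervals cover counting error only. A code in the column names is shared by the libraries of an arm, so treatment and anything else that goes with the code cannot be told apart. Xist was between 134 and 258 CPM in the DMSO libraries and between 6.90 and 40.1 CPM in the EPZ005687 libraries. Transcripts of 4 Y-linked genes summed to between 1.03 and 2.25 CPM under DMSO and to between 188 and 379 CPM under EPZ005687. The arms therefore differed in these sex-linked transcripts as well as in treatment, and their part in the treatment values below was not tested. Rn45s, the ribosomal RNA precursor, took 0.0538% to 0.109% of counts under DMSO and 0.521% to 6.54% under EPZ005687. Ribosomal protein genes took 2.42% to 3.43% under DMSO and 4.93% to 14.5% under EPZ005687, and the treated P library was highest in both. The part of these shares was not tested either. In the ExE library under DMSO the trophoblast markers Cdx2, Esrrb, Hand1, Ascl2 and Prl2c2 were at 0 counts and all 12 trophoblast markers together reached 43.2 CPM, whereas the endoderm product Afp alone stood at 15803 CPM. By these markers the ExE label covers tissue rich in endoderm transcripts and poor in trophoblast transcripts.

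The sequences before the transcription starts of Lgals2, Hnf4a and Lrp2 are shown because Lgals2 had the smallest p-value of all tested genes between regions, Hnf4a is the regulator with the widest treatment ratios, and Lrp2 is the member with another regional pattern. Each line is the 250 bases before a RefSeq start on the gene's strand (GRCm38.p6, which is mm10), with 3 short motifs in capitals: AGATAA, a form of the GATA factor site, GTTAAT, a half-site of HNF1 factors, and CAAAGT, the core of the HNF4 site, each searched on both strands. The motifs were chosen after the windows had been read, and no match overlapped another. The Lgals2 window is chr15:78855530-78855779 on the minus strand, the Hnf4a windows are chr2:163506607-163506856 and chr2:163546905-163547154 on the plus strand, and the Lrp2 window is chr2:69586030-69586279 on the minus strand.
Lgals2: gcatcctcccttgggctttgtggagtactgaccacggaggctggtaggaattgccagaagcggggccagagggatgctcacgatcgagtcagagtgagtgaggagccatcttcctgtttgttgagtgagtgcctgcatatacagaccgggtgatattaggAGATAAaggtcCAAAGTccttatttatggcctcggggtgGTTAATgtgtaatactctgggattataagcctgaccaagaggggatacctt
Hnf4a, upstream start: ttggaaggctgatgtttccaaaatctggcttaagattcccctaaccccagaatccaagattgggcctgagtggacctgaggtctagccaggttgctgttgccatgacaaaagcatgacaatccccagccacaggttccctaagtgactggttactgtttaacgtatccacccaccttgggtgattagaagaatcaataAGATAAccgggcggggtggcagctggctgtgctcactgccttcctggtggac
Hnf4a, downstream start: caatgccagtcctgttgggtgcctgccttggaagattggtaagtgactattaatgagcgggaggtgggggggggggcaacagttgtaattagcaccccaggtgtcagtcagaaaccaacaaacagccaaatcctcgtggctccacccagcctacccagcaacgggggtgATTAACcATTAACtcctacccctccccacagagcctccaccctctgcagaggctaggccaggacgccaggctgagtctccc
Lrp2: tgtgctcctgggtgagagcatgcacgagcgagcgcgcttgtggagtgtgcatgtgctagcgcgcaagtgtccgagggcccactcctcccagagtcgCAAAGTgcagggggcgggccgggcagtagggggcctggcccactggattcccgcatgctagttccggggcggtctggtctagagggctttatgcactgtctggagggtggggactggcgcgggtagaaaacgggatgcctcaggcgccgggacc

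The Lgals2 window held all 3 motifs within the 90 bases before the start, the upstream Hnf4a window held AGATAA, the downstream Hnf4a window held ATTAAC (the reverse complement of GTTAAT) in 2 places, and the Lrp2 window held CAAAGT. RefSeq windows matched 8 of the 9 genes, with 10 windows in all, and Sox17 had none. AGATAA was in 2 of these 10 windows and in 9.99% of 32851 windows of the same length, GTTAAT was in 3 of 10 and in 6.43%, and CAAAGT was in 3 of 10 and in 12.55%. Because the motifs were chosen after the windows had been read, these shares cannot show an enrichment. These are matches of letters, and no binding was measured in the libraries used here.

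Between regions, 8 of the 9 genes were low in A and higher in P and ExE, and the counting intervals of A and P overlapped only for Sox17 under DMSO and for Ihh in both arms. Lrp2 was highest in A in both arms, though not separated from ExE under EPZ005687. None of the 9 passed an adjusted p of 0.05 in edgeR's quasi-likelihood test, either for ExE against the mean of A and P or for P against A. No gene at all passed in these contrasts (0% of 13744 tested genes called in either), with smallest adjusted p-values of 0.131 and 0.0781, both those of Lgals2. At an unadjusted p under 0.05, 6 of 9 stood in the first contrast against 6.42% of all genes (882), and 5 of 9 in the second against 5.41% (744). DESeq2 called 226 genes in the first contrast and 156 in the second, and limma-voom 35 and 23. All 9 passed the filter of 10 counts in 2 libraries. Lgals2, Amn, Hnf4a, Sox17 and Ihh had at most 6 counts in either A library and so passed only through P and ExE, where they were high, and Vil1 had 10 and 6 counts in A. The counts of members between regions are therefore descriptions and no support.

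**Figure D1:**
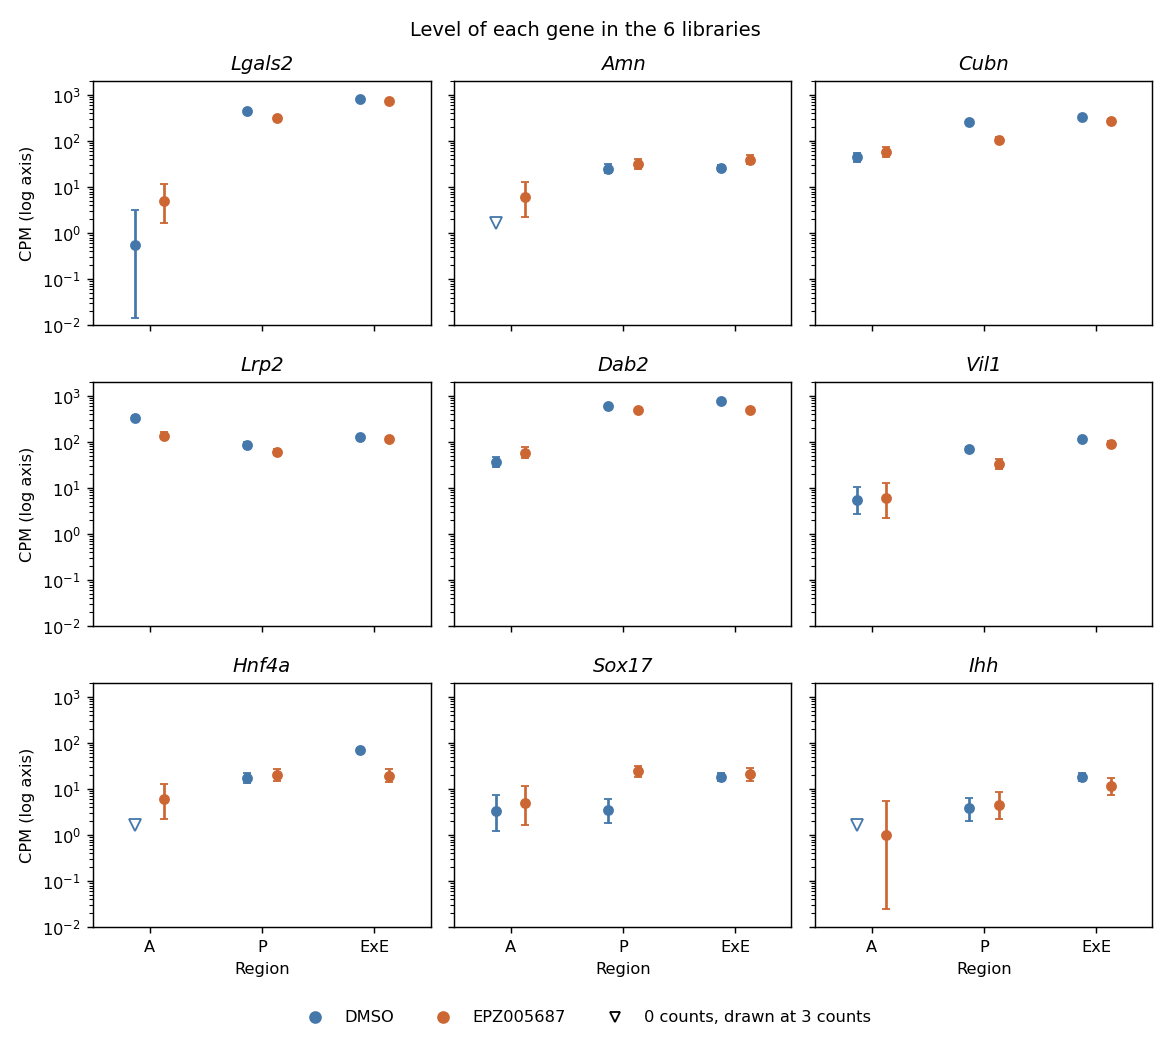
Level of each gene in CPM on a log axis by region, under DMSO in blue and EPZ005687 in orange; bars are exact 95% binomial intervals of the count (counting error only) and open triangles mark 0 counts, drawn at 3 counts. Lgals2 goes from 0.562 CPM in A under DMSO to 799 CPM in ExE under DMSO, while Lrp2 is highest, at 337 CPM, in A under DMSO.

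Among the uptake receptors, Cubn (chr2:13276338-13491876) received 80 counts in A, 866 in P and 1968 in ExE under DMSO, and 58, 232 and 544 under EPZ005687. In CPM these were 44.9, 254 and 339 and, in the treated arm, 58.0, 107 and 273. The A libraries were the lowest and their counting intervals overlapped, and within each arm ExE was the highest. The edgeR log2 fold change was 1.73 (SE 0.51, adjusted p = 0.359) for ExE against A and P and 1.93 (SE 0.64, adjusted p = 0.632) for P against A.

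Amn (chr12:111271096-111276426), the membrane anchor of cubilin, had 0, 86 and 150 counts under DMSO and 6, 70 and 78 under EPZ005687. On the CPM scale this was 0, 25.2 and 25.8 under DMSO and 5.998, 32.2 and 39.1 under EPZ005687. The P and ExE libraries of both arms formed a level band in which neighbours overlapped, clear of both A libraries. With DMSO, and with A set at 3 counts, Amn was 16.2-fold higher in P and 18.8-fold higher in ExE than in A after scaling. The log2 counting intervals of these ratios began at 3.69 and 3.92. Over both arms the log2 fold change was 4.04 (SE 1.37, edgeR adjusted p = 0.647) for P against A. It was 9.38 without the treated A library, but the A library that remained had 0 counts, so that size rests on no read in A. Without the control A library it was 2.72.

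Lrp2 (chr2:69424335-69586029), the megalin receptor, had 600, 297 and 743 counts under DMSO and 137, 132 and 227 under EPZ005687. This gave 337, 87.0 and 128 CPM in the control arm and 137, 60.7 and 114 CPM in the treated arm. A had the highest and P the lowest value in each arm. In the treated arm A and ExE were not separated, with overlapping intervals and a log2 ratio of ExE to A of -0.23 (counting interval -0.55 to 0.08). The log2 fold change was -1.34 (SE 0.61, edgeR adjusted p = 0.911) for P against A and -0.03 (SE 0.52, adjusted p = 0.999) for ExE against A and P. The sign of the latter turned under other settings (0.0409 with no low-count filter and 0.218 without the control A library). Lrp2 made up 78.6% of the counts of the 9 genes in A under DMSO (exact 95% interval 75.6 to 81.5) and 48.4% in A under EPZ005687 (42.5 to 54.4), against 5.59% to 6.31% in the 4 P and ExE libraries. The marker list of neural ectoderm, a tissue in which megalin is also known, was also highest in A, although it was lower in ExE than in P, unlike Lrp2: its 8 genes summed to 741, 46.0 and 12.04 CPM in A, P and ExE under DMSO and to 295, 74.5 and 15.04 CPM under EPZ005687. Its part in the Lrp2 level was not tested. All 8 markers were detected in both A libraries, and 5 of them, Otx2, Sox1, Hesx1, Sox2 and Rax, were at 0 in ExE under DMSO.

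Dab2 (chr15:6299788-6440715), the clathrin adaptor, had 66, 2068 and 4476 counts under DMSO and 59, 1056 and 974 under EPZ005687. Its levels were 37.1, 606 and 770 CPM under DMSO and 59.0, 486 and 488 CPM under EPZ005687, so A was low in both arms. Under EPZ005687 the CPM intervals of P and ExE overlapped, whereas after TMM scaling P was the higher, with a log2 ratio of ExE to P of -0.35 (counting interval -0.48 to -0.22). The log2 fold change was 3.74 (SE 0.72) for P against A, with an edgeR adjusted p of 0.203 and rank 16 of 13744 by p, and 2.02 (SE 0.54, adjusted p = 0.301) for ExE against A and P. DESeq2 called Dab2 in both contrasts and limma-voom in P against A.

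**Figure D2:**
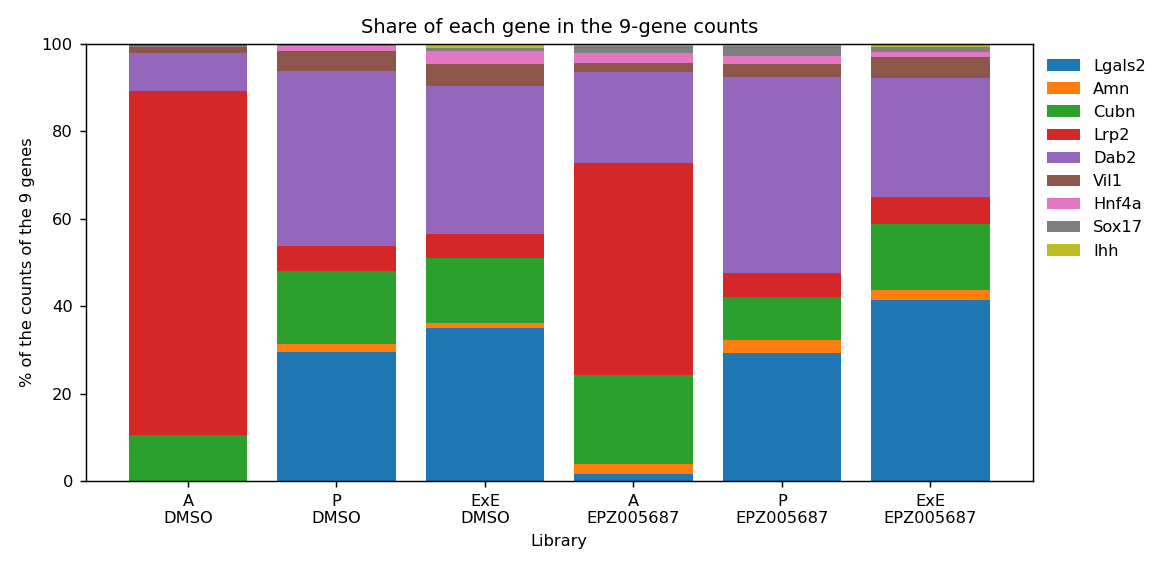
Share of each gene in the counts of the 9 genes, as stacked bars in percent, for the 6 libraries. Lrp2 takes 78.6% and 48.4% in the A libraries, and Lgals2 and Dab2 together take most of the counts in each P and ExE library.

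For the lectin, Lgals2 (chr15:78850860-78855529) had 1, 1533 and 4646 counts under DMSO and 5, 692 and 1492 under EPZ005687. The levels were 0.562, 449 and 799 CPM and, treated, 4.998, 318 and 748 CPM. A was nearly empty in both arms, P lay far above it, and the intervals of the ExE libraries overlapped at the top. Its log2 fold change was 7.55 (SE 1.01, edgeR adjusted p = 0.0781) for P against A and 4.73 (SE 0.66, adjusted p = 0.131) for ExE against A and P, and in each contrast it ranked 1 of 13744 genes by p. In the control arm the P to A log2 ratio was 8.53 with a counting interval of 7.28 to 15.07, since A gave 1 count. DESeq2 called Lgals2 in both contrasts, and limma-voom called it in P against A. Among the other 8 galectins listed, 5 had enough counts to be tested and 0 passed in any of the 4 contrasts. Lgals1, a galectin of many tissues, was at 6.18, 39.6 and 10.7 CPM under DMSO and at 10.996, 261 and 44.6 CPM under EPZ005687. Lgals1 was thus highest in P in each arm, and Lgals2 in ExE. Lgals9, another galectin, was at 22.5 CPM in ExE under DMSO and 64.7 CPM in ExE under EPZ005687, against at most 8.997 CPM in the A and P libraries. Lgals8 was between 0 and 26.6 CPM, and Lgals3 between 0 and 14.3 CPM.

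Villin, Vil1 (chr1:74409384-74435560), had 10, 234 and 663 counts under DMSO and 6, 72 and 178 under EPZ005687. Scaled, these were 5.62, 68.6 and 114 CPM and 5.998, 33.1 and 89.2 CPM. The order A, P, ExE was the same in each arm with no overlap of intervals inside an arm. The log2 fold change was 2.64 (SE 0.58, edgeR adjusted p = 0.216) for ExE against A and P and 3.30 (SE 0.78, adjusted p = 0.356) for P against A, and DESeq2 called both. Usp37, a ubiquitin protease gene that overlaps Vil1, had 634, 1524 and 1816 counts under DMSO and 140, 138 and 307 under EPZ005687. Whether the counting used strand is not given in the sources used here, so shared reads cannot be told apart. Of 15 tested brush border partners 0 passed in any contrast. In both region contrasts 14 of 15 had positive fold changes, with medians of 1.90 (all genes 0.03) for ExE against A and P and 1.997 (all genes 0.13) for P against A. The 4 most abundant were the keratins Krt18 and Krt8, the actin bundler Pls1 and the membrane linker Ezr, and Ezr was at 28.6, 162 and 332 CPM under DMSO and at 67.0, 149 and 261 CPM under EPZ005687. Under EPZ005687 Krt18 also kept the order A, P, ExE (540, 613 and 2907 CPM). Krt8 (778, 465 and 1919 CPM) and Pls1 (46.0, 19.3 and 232 CPM) were higher in A than in P there.

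Among the regulators, Hnf4a (chr2:163506811-163572907) had 0, 60 and 407 counts under DMSO and 6, 44 and 39 under EPZ005687. The control arm thus stood at 0, 17.6 and 70.0 CPM and the treated arm at 5.998, 20.2 and 19.5 CPM. The control ExE library stood alone at the top, and the P libraries and the treated ExE library overlapped. With DMSO, and with A set at 3 counts, Hnf4a was 51.1-fold higher in ExE and 11.3-fold higher in P than in A after scaling. The log2 counting intervals of these ratios began at 5.37 and 3.16. Over both arms the log2 fold change was 2.92 (SE 1.20, edgeR adjusted p = 0.715) for ExE against A and P and 3.15 (SE 1.45, adjusted p = 0.911) for P against A, and the former was 0.55 without the control ExE library. Without the treated A library the values were 5.69 and 9.56. The A library that remained had 0 counts, so these sizes rest on no read in A. Without the control A library the values were 1.70 and 1.59.

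Sox17 (chr1:4490928-4497426) had 6, 12 and 108 counts under DMSO and 5, 53 and 42 under EPZ005687. As CPM this was 3.37, 3.52 and 18.6 and, treated, 4.998, 24.4 and 21.1. With DMSO only ExE was high, and under EPZ005687 both P and ExE were high and overlapped. The log2 fold change was 1.68 (SE 1.13, edgeR adjusted p = 0.914) for ExE against A and P and 1.69 (SE 1.42, adjusted p = 0.935) for P against A, and the latter was -0.02 without the treated P library. Sox17 is also a gene of endothelium and of definitive endoderm. The 10 endothelial markers summed to 81.4, 167 and 6.19 CPM in A, P and ExE under DMSO and to 86.0, 110 and 140 CPM under EPZ005687. Pecam1, Esam and Cldn5 were at 0 in the control ExE library. The 10 markers of definitive and gut endoderm summed to between 83.7 CPM (A under DMSO) and 871 CPM (ExE under DMSO), and 5 of the 10 (Trh, Cdx2, Nkx2-1, Pdx1 and Sox2) were at 0 in the latter. Cldn6 (569 CPM), Cpm (254 CPM) and Foxa2 (47.3 CPM) were high there. The part of either cell type in the Sox17 level was not tested.

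Ihh (chr1:74945315-74951672), the Hedgehog ligand, had 0, 13 and 107 counts under DMSO and 1, 10 and 23 under EPZ005687. Its levels were 0, 3.81 and 18.4 CPM and 0.9997, 4.60 and 11.5 CPM. ExE was the highest region in each arm, but each library overlapped its neighbour in the order of levels. With DMSO, and with A set at 3 counts, Ihh was 13.4-fold higher in ExE and 2.45-fold higher in P than in A after scaling. The log2 counting intervals of these ratios began at 3.43 and 0.79. The log2 fold change was 3.59 (SE 1.51, edgeR adjusted p = 0.729) for ExE against A and P. For P against A it was 3.49 (SE 2.07, edgeR adjusted p = 0.935). Without the treated A library the P against A value was 7.01, with 0 counts left in A. Of 11 tested Hedgehog pathway genes 0 passed in any contrast, and 2 of 11 had a positive fold change for ExE against A and P, with a median of -0.60 (all genes 0.03). Gli3, a transcription factor of the pathway, was at 585, 46.3 and 2.75 CPM under DMSO and at 106, 30.8 and 20.0 CPM under EPZ005687, highest in A where Ihh was lowest. The signal transducer Smo was between 20.5 and 78.0 CPM in the 6 libraries, the co-receptor Cdon between 5.27 and 46.9 CPM, and Sufu, which restrains the Gli factors, between 3.52 and 22.6 CPM. The receptor gene Ptch1, itself a target of the pathway, had 1, 8 and 0 counts under DMSO and 7, 39 and 20 under EPZ005687, a log2 fold change of 3.90 for the treatment (SE 1.75, edgeR adjusted p = 0.546). Gli1, a factor and target of the pathway, had 0, 4 and 0 counts under DMSO and 13, 8 and 2 under EPZ005687 and was not tested.

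**Figure D3:**
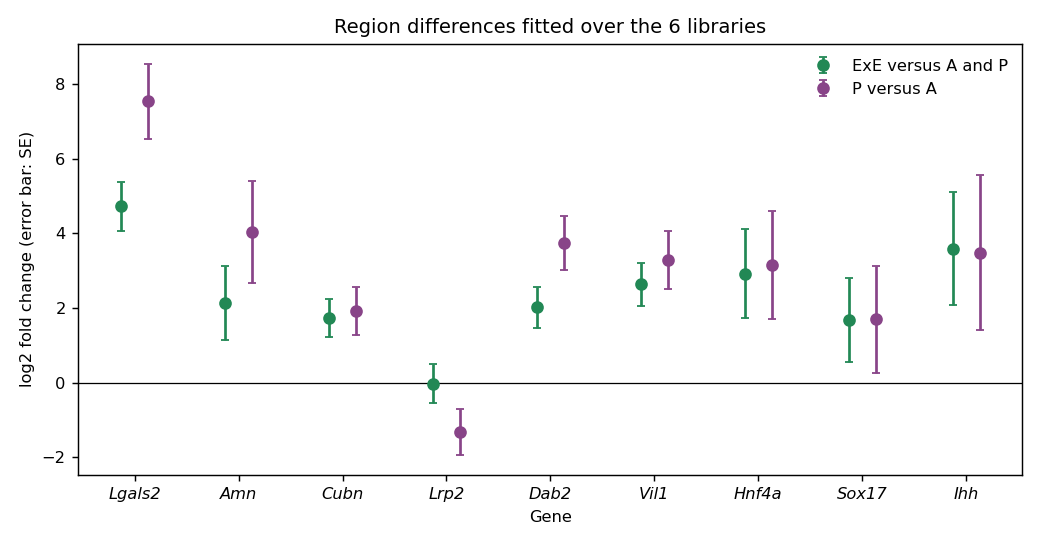
Fitted log2 fold change with its SE for each gene in ExE against the mean of A and P (green) and in P against A (purple), from edgeR over the 6 libraries. All genes but Lrp2 lie above 0 in both contrasts, with Lgals2 highest at 7.55 for P against A.

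Over the 9 genes, 8 fold changes were positive in each region contrast (51.2% of all genes for ExE against A and P, 54.1% for P against A), with medians of 2.13 and 3.30 (all genes 0.03 and 0.13). By 4-fold steps between single libraries under DMSO, 7 of 9 were higher in P than in A (19.0% of all genes), 8 of 9 higher in ExE than in A (20.1%), and Hnf4a, Sox17 and Ihh higher in ExE than in P (3.11%). With EPZ005687 these counts were 5 of 9 for P over A (9.23%), 6 of 9 for ExE over A (7.08%) and 0 of 9 for ExE over P (11.1%). The contrasts and ratios share libraries and are not independent of each other. The 3 genes past 4-fold for ExE over P under DMSO were the 2 transcription factors and the ligand. Their log2 ratios were 2.13 (counting interval 1.78 to 2.59) for Hnf4a, 2.37 (1.72 to 3.58) for Sox17 and 2.26 (1.62 to 3.41) for Ihh. The receptors, the adaptor, villin and galectin-2 lay between 0.21 and 1.01, and among these only the interval of Amn (-0.18 to 0.62) held 0. With EPZ005687 the corresponding ratios were -0.39 (-1.07 to 0.25) for Hnf4a, -0.55 (-1.19 to 0.05) for Sox17 and 0.86 (-0.16 to 2.21) for Ihh. Whether ExE against P changed between the arms was not tested, and the interaction fit given with the treatment values sets ExE against A and P together.

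The treatment comparison asks how these genes differed between EPZ005687 and DMSO. None of the 9 passed in edgeR (1.53% of 13744 tested genes called, 203 lower and 7 higher under EPZ005687). At an unadjusted p under 0.05 there were 0 of 9, against 8.87% of all genes (1219), and neither DESeq2 nor limma-voom called any of them while calling 564 and 397 genes in all. The smallest p among them was that of Lrp2, with 104 ± 39.1 CPM (SD over the 3 regions) under EPZ005687 and 184 ± 134 CPM under DMSO. The fold change was -1.08 on the log2 scale (SE 0.50, edgeR adjusted p = 0.575), lower in 3 of 3 regions. Cubn had -0.83 (SE 0.51, adjusted p = 0.742), Vil1 -0.91 (SE 0.59, adjusted p = 0.762) and Dab2 -0.53 (SE 0.54, adjusted p = 0.868). These 4 values depend in size on the scaling: with library totals in place of TMM they were -0.64, -0.39, -0.47 and -0.10. Lgals2 was at -0.19 (SE 0.67), Hnf4a at -0.09 (SE 1.42) and Ihh at -0.07 (SE 2.29), all of which had the other sign with library totals. Amn was at 0.85 (SE 1.01) and Sox17 at 0.73 (SE 1.17).

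**Figure D4:**
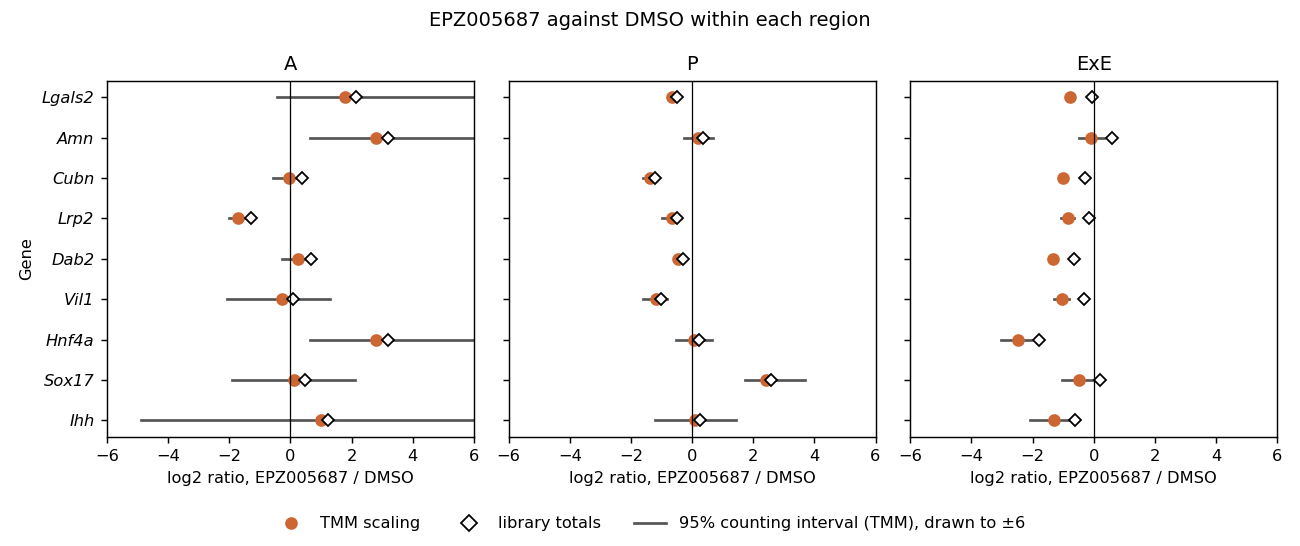
log2 ratio of EPZ005687 to DMSO in each region for the 9 genes, with TMM scaling (orange circles) and with library totals (open diamonds); lines are 95% counting intervals, drawn no farther than ±6. Hnf4a is at -2.47 in ExE and Sox17 at 2.43 in P, and in ExE the diamonds lie to the right of the circles for every gene.

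Within regions, where 1 library stands against 1 and no test exists, the genes past 4-fold were few and near the share of all genes. In A, Amn and Hnf4a were higher under EPZ005687 (2 of 9, 18.1% of all genes), each with 6 counts against 0. With the control set at 3 counts both were 2.67-fold higher after scaling, and both log2 counting intervals began at 0.65. Their place past 4-fold rests on the prior count of 2, since with a prior count of 5 both had a log2 ratio of 1.75 and 0 of 9 were higher. In the same region 0 of 9 were lower (8.39%). In P, Sox17 was higher (1 of 9, 11.3%) with 53 counts against 12, a log2 ratio of 2.43 with a counting interval of 1.72 to 3.69, and 0 of 9 were lower (11.5%). In ExE, Hnf4a was lower (1 of 9, 7.94%) with 39 counts against 407, a log2 ratio of -2.47 with a counting interval of -3.04 to -2.05 and of -1.78 with library totals, and 0 of 9 were higher (16.7%). By size, the ratios of Amn and Hnf4a in A (2.79 each, on 6 counts) came first, followed by Hnf4a in ExE and Sox17 in P with opposite sign. At 1 or 2 of 9 per region, they are no result about transcription factors as a class.

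In A the only other ratio whose counting interval left out 0 was that of Lrp2, at -1.71 (-1.995 to -1.45) and -1.29 with library totals. Lgals2, with 5 counts against 1, had a log2 ratio of 1.77 with an interval from -0.42 to 8.30. In P, Cubn had -1.39 (-1.61 to -1.19), Vil1 -1.18 (-1.60 to -0.81), Lrp2 -0.66 (-0.98 to -0.37), Lgals2 -0.64 (-0.78 to -0.52) and Dab2 -0.47 (-0.58 to -0.36), while Amn at 0.20, Hnf4a at 0.05 and Ihh at 0.10 had intervals that held 0. In P, then, the interval of cubilin lay below 0 and that of its anchor held 0. In ExE the ratios were -1.34 for Dab2, -1.29 for Ihh, -1.03 for Vil1, -0.99 for Cubn, -0.85 for Lrp2, -0.78 for Lgals2, -0.49 for Sox17 and -0.08 for Amn. Library totals moved each of these up, to -0.64, -0.62, -0.33, -0.29, -0.15, -0.07, 0.19 and 0.61 in the same order, so the sign for Sox17 and Amn in ExE turned with the scaling.

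The interaction fit asked whether the EPZ005687 effect in ExE differed from that shared by A and P. None of the 9 passed in edgeR (0.0509% of genes called, 7 of 13744, with 515 genes at an unadjusted p under 0.05), and DESeq2 and limma-voom called 0 of 9 while calling 14 and 6 genes in all. Hnf4a had the smallest p of the 9, with a difference of -3.92 on the log2 scale (SE 2.08, unadjusted p = 0.0595, adjusted p = 1). The other fitted differences ran from -2.15 for Ihh to 0.34 for Lrp2. Of the 9, 8 were negative and 1 was positive, against 48.4% of all genes positive, and the median was -1.23 (all genes -0.07).

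Other products of visceral endoderm were compared across the same libraries. The 8 members other than Lrp2 summed to 91.6, 1427 and 2155 CPM in A, P and ExE under DMSO and to 146, 1026 and 1689 CPM under EPZ005687. Afp, alpha-fetoprotein, the main secreted protein of this epithelium, was at 5.05, 3757 and 15803 CPM under DMSO and at 2896, 3899 and 10158 CPM under EPZ005687. The treated A library therefore carried Afp near the level of the P libraries, while the 8 uptake and regulator genes were near the level of the control A library. Per 100 Afp counts the 8 genes gave 5.04 counts in the treated A library, 38.0 and 26.3 in the P libraries under DMSO and EPZ005687 and 13.6 and 16.6 in the ExE libraries. The control A library had 9 Afp counts, too few for such a ratio. In these bulk libraries fewer cells of a type and less RNA per cell cannot be told apart. Of 16 tested secreted products 7 were higher by 4-fold or more under EPZ005687 in A (18.1% of all genes). Among the 7 were Afp, the retinol carrier Rbp4 (2.81 and 592 CPM) and transferrin Trf (2.81 and 367 CPM). Others on the list stayed far below the control P library, such as Apob (12.4 and 24.0 CPM in A, 290 in control P) and Rhox5 (9.55 and 23.0 CPM, 442 in control P). The median log2 ratio was 1.93 over the 16, against 0.25 over the 9 members and 0.15 over all genes. In P 1 of the 16 was higher (11.3% of all genes) and 6 lower (11.5%), with a median of -1.50. In ExE 0 were higher (16.7%) and 2 lower (7.94%), with a median of -1.22. Ttr, the thyroid hormone carrier, was at 2.25, 2409 and 3726 CPM under DMSO and at 120, 2298 and 1771 CPM under EPZ005687. Apoe, a lipoprotein component, was at 92.7, 2782 and 1353 CPM and at 454, 1146 and 4074 CPM. Other lists also had genes higher by 4-fold or more in treated A (18.1% of all genes). These were 4 of 15 brush border, 7 of 23 endocytic and lysosomal and 6 of 12 cargo genes, with Rbp4 and Trf on the cargo list too. Lower were 0, 1 and 0 of them (8.39%). Further regulators had 5 of 14 higher and 2 lower. The brush border list summed to 201 CPM in control A and 1732 CPM in treated A, the regulators to 712 and 311 CPM.

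**Figure D5:**
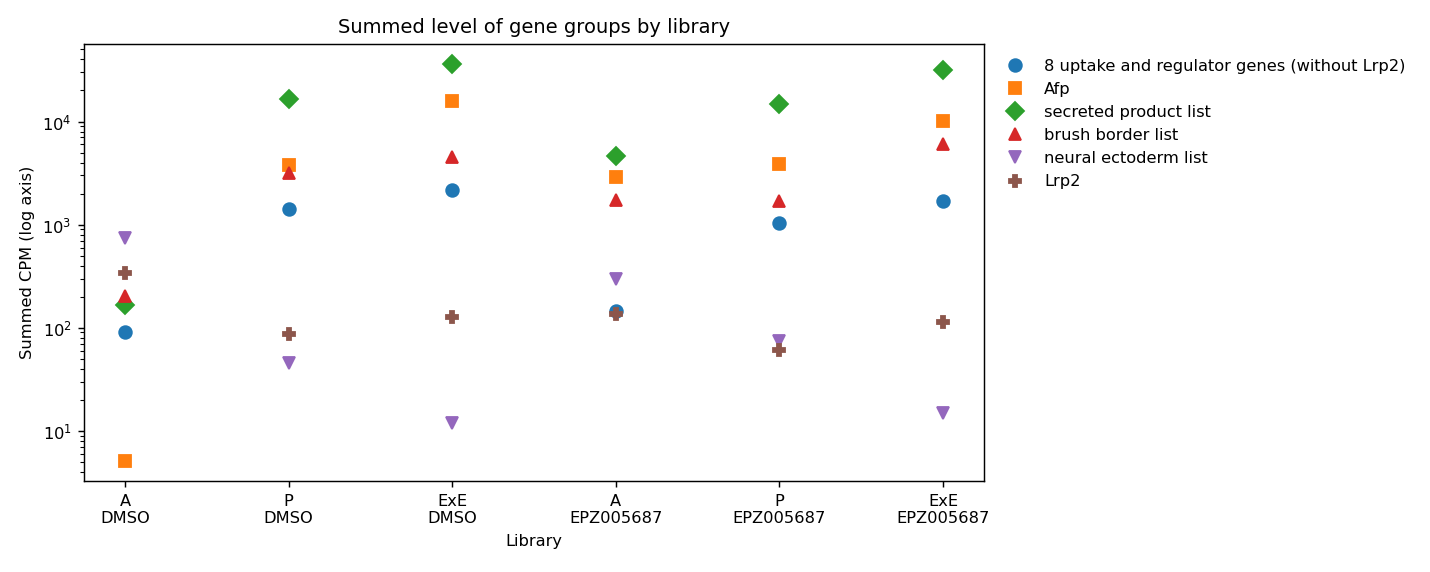
Summed CPM on a log axis in the 6 libraries for the 8 genes without Lrp2, for Afp, for the lists of secreted products, brush border partners and neural ectoderm markers, and for Lrp2; each is to be compared across libraries only, since genes differ in length. In A under EPZ005687, Afp is at 2896 CPM and the 8 genes at 146 CPM.

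The secreted products had positive fold changes for all 16 tested genes in both region contrasts, with medians of 3.09 for ExE against A and P and 3.79 for P against A, and 0 of 16 passed in any contrast. The parietal endoderm, the other endoderm layer that lies next to this tissue, also varied with region: its 12 markers summed to 257, 1792 and 11707 CPM in A, P and ExE under DMSO and to 784, 1949 and 4655 CPM under EPZ005687. Of the 12, 9 were detected in the control A library and 12 in control ExE. Its part in the regional values was not tested. The markers of mesoderm and streak summed to 3.93, 64.5 and 28.0 CPM under DMSO and to 213, 110 and 47.1 CPM under EPZ005687. In treated A, 203 CPM of this was the single gene T, and Mesp1, Tbx6 and Snai1 were at 0 there. The trophoblast markers lay between 18.0 and 96.2 CPM in all libraries. The epiblast markers summed to between 2046 and 3065 CPM under DMSO and to between 212 and 477 CPM under EPZ005687, and 1 of 6 tested, Sall4, passed in the treatment contrast. Sall4 carried these sums, with at least 1904 CPM in each control library and at most 416 CPM in each treated library. Among the 6 tested epiblast markers 2 had a positive treatment fold change. Dnmt3b, for example, was at -1.06 on the log2 scale, not past the threshold. Pou5f1 was at 10.1 and 3.999 CPM in control and treated A, and at 0.879 and 8.74 CPM in control and treated P.

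The wider uptake machinery showed the same direction between regions with smaller medians. Of 23 tested endocytic and lysosomal genes 20 had a positive fold change for ExE against A and P (median 0.99, all genes 0.03) and 18 for P against A (median 1.04, all genes 0.13), and 0 of 23 passed in any contrast. The protease cathepsin L (Ctsl) was at 120, 1209 and 2168 CPM under DMSO and at 388, 2284 and 1415 CPM under EPZ005687. Lrpap1, the chaperone that keeps megalin from binding cargo too early, was at 101, 1081 and 2404 CPM under DMSO and at 234, 309 and 1361 CPM under EPZ005687. It was lowest in the A libraries, where Lrp2 was highest. The clathrin heavy chain Cltc was between 355 and 1525 CPM and the lysosomal protein Lamp1 between 94.4 and 671 CPM. Of 12 tested cargo genes 0 passed in any contrast, with medians of 1.30 for ExE against A and P and 1.40 for P against A. The transferrin receptor Tfrc was between 78.6 and 520 CPM and the cobalamin processing gene Mmadhc between 91.4 and 150 CPM.

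Of 14 tested further regulators of visceral endoderm 1 passed, in the treatment contrast. Nr2f2, an orphan nuclear receptor, fell under EPZ005687 from 458, 270 and 209 CPM in A, P and ExE to 33.0, 15.2 and 11.03 CPM. Its log2 fold change was -4.47 (SE 0.56), lower in 3 of 3 regions, with an edgeR adjusted p of 0.00409. Cited1, a transcriptional coactivator, was at 0, 164 and 235 CPM under DMSO and at 11.996, 105 and 181 CPM under EPZ005687, in the order A, P, ExE that most members had. Foxa1, a forkhead factor of endoderm, was at 0, 49.2 and 55.4 CPM and at 14.0, 95.7 and 21.1 CPM. Otx2, a homeobox factor of anterior tissue, was at 193, 22.0 and 0 CPM and at 146, 33.6 and 2.005 CPM, the reverse order. In the control A library 9 of the 18 listed regulators were at 0, Gata4, Foxa2, Sox7 and Hhex among them.

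Across the 6 libraries the 8 genes without Lrp2 followed each other, with Pearson r of log2 CPM from 0.546 to 0.986 over 28 pairs and a median of 0.911, and Lrp2 had r from -0.786 to -0.274 with them. These values are over n = 6 libraries that share region, arm and depth, and describe only how alike the profiles are. Among 10265 genes with 100 or more counts, the nearest to Lgals2 was Rhox5 (r = 0.998), a homeobox gene at 9.55, 442 and 663 CPM under DMSO and at 23.0, 313 and 641 CPM under EPZ005687, followed by Trappc2l and Parvb. The nearest to Cubn were Chchd5, Cyba and Tes, to Amn Pnkd and Rhpn2, and to Dab2 Sat1, Pwwp2b and Rnase4. Vil1 was nearest to Tmco1, Sri and the fatty acid binding protein gene Fabp1 (r = 0.998), which had 0 CPM in both A libraries and 57.3 CPM in ExE under DMSO. Hnf4a was nearest to Sgms2, Fndc3b and Arl6ip5, Sox17 to Pnrc1 and Fam129b, and Ihh to Cd9, Ezr and the hypoxia factor gene Epas1. Lrp2 was nearest to Tpr (r = 0.99), a nuclear pore gene at 535, 217 and 247 CPM under DMSO and at 291, 169 and 299 CPM under EPZ005687, and to Gm10785 and 2610015P09Rik.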

How the data were processed

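The authors deposited 1 table of raw counts, whole numbers by gene symbol and library whose totals differ. Per the submitters' processing notes the tools were CASAVA 1.8, TopHat2 2.0.9 and BWA and the build mm10. What counted the reads, whether strand was used and which annotation served is not given in the sources used here. Of 23154 entries, 27 that carried dates in place of a symbol (0.162% to 0.961% of counts) were left out. Genes with 10 or more counts in 2 libraries (13744) were scaled by TMM and tested in edgeR 4.0.16 (R 4.3.3; quasi-likelihood, region plus treatment, 2 residual degrees of freedom, or 1 with a treatment term in ExE), with Benjamini-Hochberg adjustment over all of them and a threshold of 0.05. The SE is the log2 fold change over the square root of F. Single-library log2 ratios used TMM CPM with a prior count of 2 and exact binomial 95% intervals; the rule of size was 4-fold. DESeq2 1.42.0, limma-voom (limma 3.58.1), other scalings, filters, prior counts and left-out libraries were alternatives. The genes named are the 9 members, from each pathway list those past the threshold and the 4 with the highest mean CPM, and the 3 nearest profiles, of which 2 genes are not reported here; further list genes were named after their values were seen. The members and lists were chosen with earlier results of these data known. The edgeR steps were tested on simulated counts.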

Additional observations from a re-analysis of the deposited data

Results flagged for a closer look

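Hnf4a lay on opposite sides of 0 in 2 regions under the same treatment contrast: its log2 ratio of EPZ005687 to DMSO was 2.79 in A (6 counts against 0) and -2.47 in ExE (39 counts against 407). With library totals as scaling the values were 3.20 and -1.78. The difference between A and ExE itself was not tested, and in the interaction fit, which pools A with P, Hnf4a had an unadjusted edgeR p of 0.0595 and an adjusted p of 1.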

How the results depend on the processing

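No paired analysis was possible because each region and treatment has 1 library and no replicate numbers to pair. The main fit already holds region and treatment as terms, and without the region term (treatment) or the treatment term (regions) 0 members passed as well. Of 47 alternative counts of called members 33 were unchanged, and in the treatment and interaction contrasts the count was 0 under every alternative run. For ExE against A and P, 3 members passed with DESeq2 (Dab2, Lgals2 and Vil1), with 226 genes called in all. With no low-count filter 2 members passed, with 210 of 22026 genes called. Leaving out an A or P library gave 4 members without control P (358 of 13225 genes called) and 3 without treated A (388 of 13558). It gave 0 without control A (6 of 13146) and 0 without treated P (0 of 12823). Fits left with 1 library on a compared side are given no count here. For P against A, 3 members passed with DESeq2 (156 genes called in all), 2 with limma-voom (23) and 3 with no filter (140 of 22026). Leaving out control ExE gave 2 members (96 of 13188 genes called), and leaving out treated ExE gave 2 (74 of 12632). Which library was left out thus changed the calls among the members and over all genes, and the cause was not tested.

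Of 419 alternative fold changes 27 changed sign. No main value was past the threshold in any contrast, so a change of sign could only come from values not past it. For the treatment, DESeq2 gave 0.14 for Hnf4a and 0.0713 for Ihh, library totals 0.25 for Lgals2, 0.33 for Hnf4a and 0.38 for Ihh, DESeq2 size factors 0.0078 for Ihh, the stricter filter of 30 counts 0.0772 for Hnf4a, and A and P alone 0.33 for Lgals2, 1.69 for Hnf4a and 0.96 for Ihh. Lrp2 for ExE against A and P was 0.0409 with no filter, and in the interaction library totals gave 0.15 for Cubn and 0.21 for Vil1. Leaving out 1 library turned the treatment values of Lgals2 (-0.71 to 0.32), Sox17 (-0.17 to 1.52), Hnf4a (-1.24 to 1.60) and Ihh (-0.64 to 0.88), Lrp2 for ExE against A and P (-0.26 to 0.22) and Sox17 for P against A (-0.0243 to 2.79). Of 324 alternative single-library ratios 23 moved beyond their counting interval, all with library totals.

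The shallowest library, A with EPZ005687, limits what can be seen of Amn, Hnf4a, Sox17 and Ihh, which had at most 6 counts there. Leaving out a library was not run for the interaction, since no residual degree of freedom would be left.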
